A study of Mus musculus with 4 samples.

Results

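The 10 genes described here encode proteins of the lipid droplet and of the triglyceride stored in it. They were chosen by name, as Plin2, Plin3, G0s2, Hilpda, Pnpla2, Abhd5, Mgll, Dgat1, Dgat2 and Bscl2, and all 10 were found among the 25567 genes of the tables by their mouse Ensembl identifiers. Their reads were followed in single hippocampal nuclei of wild-type (WT) mice and of mice with Fasn-R1812W, in which 1 amino acid of the palmitate-making enzyme fatty acid synthase is replaced. All animals were 8.5 months old. The NeuN+ gate held nuclei sorted with an antibody to NeuN, a protein of neuronal nuclei. The EdU+ gate held nuclei that had taken up EdU, a thymidine analogue built into newly made DNA. Mice got 2 intraperitoneal injections of 100 mg per kg on each of 3 days and were taken on day 4. The labels do not say how many mice were pooled, what sex they were or whether the allele was on 1 or both chromosomes. Reads of Fasn do not show which allele they came from, so the genotype labels could not be checked.

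Each gate of each genotype was 1 library of 384 wells, so that there were 4 in all, made by Smart-seq2 without molecular identifiers. Nuclei with at least 1000 genes and 50000 reads were kept, which left 314 for NeuN+ WT, 301 for NeuN+ Fasn-R1812W, 167 for EdU+ WT and 348 for EdU+ Fasn-R1812W. Values given for all 4 libraries keep this order. Their median depth was between 175328 and 224967 reads in 3 libraries and 80771 in EdU+ WT, where the median nucleus held 1298 genes, against 3006 to 4417 in the others. The summed level of 8 oligodendrocyte precursor markers was 267 and 214 CPM (counts per 1000000) in the NeuN+ libraries and 11449 and 9814 CPM in the EdU+ libraries. Markers of committed precursors (159 and 215 against 2805 and 1675 CPM) and of astrocytes (1796 and 720 against 5126 and 4728 CPM) were also higher in the EdU+ libraries. Their part in the differences between gates was not tested. Among kept nuclei, the EdU+ libraries differed in immune cell RNA. The limit of 1000 genes lay above the median well of EdU+ WT (964 genes). Its part in the marker levels was not tested. The summed level of 10 leukocyte markers was 128 CPM for the WT, where 6 of them were under 1 CPM, and 2576 CPM for the mutant, where none was. EdU+ Fasn-R1812W also stood apart in its low values: 41.9% of its nonzero gene values were a single read, against 8.30% to 16.5% in the other libraries. For that reason nuclei with 10 reads or more of a gene are counted here beside nuclei with any read.

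A lipid droplet is a core of triglyceride and sterol ester inside a phospholipid layer. DGAT enzymes add the last fatty acid to make triglyceride in the endoplasmic reticulum, and seipin, the product of Bscl2, shapes the sites where droplets bud from it. Perilipins coat the droplet. ATGL, the product of Pnpla2, cuts the first fatty acid from triglyceride with the help of its co-activator ABHD5 and is held back by the small proteins encoded by G0s2 and Hilpda. Monoglyceride lipase, the product of Mgll, cuts the last one and in neurons also ends signalling by the endocannabinoid 2-arachidonoylglycerol. In brain, droplets are known mostly from glia, ependymal cells and neural stem or progenitor cells, while neurons store few.

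In a fit over all 4 libraries, G0s2 and Plin2 were higher in EdU+ nuclei, Dgat2 was higher in NeuN+ nuclei and the other 7 members were not called for gate, where 6.73% of all genes were called. No member was called for genotype, where 0.00574% of all genes were. In the EdU+ gate G0s2 reads came almost wholly from nuclei with markers of oligodendrocyte precursors, from which committed precursors and astrocytes were not separated. Dgat2 reads of the NeuN+ gate came mostly from nuclei with markers of dentate granule neurons. Most Plin2 reads of EdU+ Fasn-R1812W came from a cluster led by immune genes. Plin2, Plin3, Hilpda, Pnpla2 and Abhd5 rested on few nuclei in the EdU+ libraries, and Plin2 passed the filter of the fit only through those libraries.

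The promoters of the 2 members that were higher in EdU+ nuclei are printed to show what their start regions hold. They run from 250 bases before to 50 bases after the start site, are from RefSeq on GRCm38.p6 and are written 5′ to 3′ on the gene's strand. G0s2 lies at chr1:193273139-193273438 on the minus strand and Plin2 at chr4:86670010-86670309 on the minus strand. Capitals mark the hypoxia response cores ACGTG and GCGTG and the CCAAT box, each on either strand.
G0s2: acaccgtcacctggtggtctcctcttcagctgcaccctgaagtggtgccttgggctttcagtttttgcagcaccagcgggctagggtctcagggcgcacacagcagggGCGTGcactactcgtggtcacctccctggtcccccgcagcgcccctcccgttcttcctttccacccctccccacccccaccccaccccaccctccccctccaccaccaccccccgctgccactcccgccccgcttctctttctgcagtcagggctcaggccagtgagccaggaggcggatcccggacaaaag
Plin2: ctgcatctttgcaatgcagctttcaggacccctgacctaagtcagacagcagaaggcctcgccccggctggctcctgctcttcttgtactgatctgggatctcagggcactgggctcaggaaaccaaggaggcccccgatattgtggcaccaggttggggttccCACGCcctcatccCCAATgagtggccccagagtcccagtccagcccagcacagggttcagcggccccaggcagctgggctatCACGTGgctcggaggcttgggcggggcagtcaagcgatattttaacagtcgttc
G0s2 held 1 GCGTG core. Plin2 held 1 GCGTG core, 1 CCAAT box and the palindrome CACGTG, an E-box in which ACGTG is read on both strands. Neither held the TATA box TATAAA or the direct repeat to which peroxisome proliferator-activated receptors bind. Of 32851 RefSeq promoters of this length, 19.6% held ACGTG, 32.4% held GCGTG, 37.4% held CCAAT, 7.15% held CACGTG, 13.6% held TATAAA and 0.0396% held that repeat. Of the 12 promoters of the 8 members with an entry, 4 held ACGTG, 8 held GCGTG and 10 held the GC box GGGCGG, which 35.7% of all promoters held. Of the same 12, 3 held CCAAT, 2 held CACGTG and none held TATAAA or the repeat. The 2 windows of Hilpda overlap and share 1 GCGTG core, and those of Mgll also overlap, so the 12 are not independent. These are matches of letters and not binding sites.

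Levels are given as pooled CPM, the reads of a gene per 1000000 nuclear-encoded reads of the kept nuclei of a library, with exact Poisson intervals at 95%. PCR copies are not independent molecules, so every interval here holds for counting error alone and says nothing of the spread between animals. In bulk sums of this kind, fewer nuclei of a type and less RNA per nucleus cannot be told apart. Per kilobase of exon, the order in NeuN+ WT was Dgat2 (37.1 CPM per kb), Dgat1 (24.98), Bscl2 (22.5), Mgll (13.1), Hilpda (9.22), G0s2 (3.16), Abhd5 (2.26), Plin3 (0.939), Pnpla2 (0.839) and Plin2, which had no read. In EdU+ WT the order was G0s2 (443 CPM per kb), Bscl2 (39.9), Hilpda (38.9), Mgll (21.1), Dgat1 (16.0), Dgat2 (9.93), Plin2 (9.02), Pnpla2 (6.92), Plin3 (3.02) and Abhd5 (1.81). The counting intervals of neighbours in these orders overlapped for Plin3 and Pnpla2 of NeuN+ WT and, in EdU+ WT, for Bscl2 and Hilpda and for Dgat2 and Plin2. Among mutant nuclei the same 7 genes led the NeuN+ order in the same sequence, and the EdU+ order began with G0s2 (162 CPM per kb), Dgat1 (57.5) and Mgll (18.7). The EdU+ orders were led by an inhibitor of ATGL and the NeuN+ orders by both enzymes of triglyceride synthesis.

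**Figure D1:**
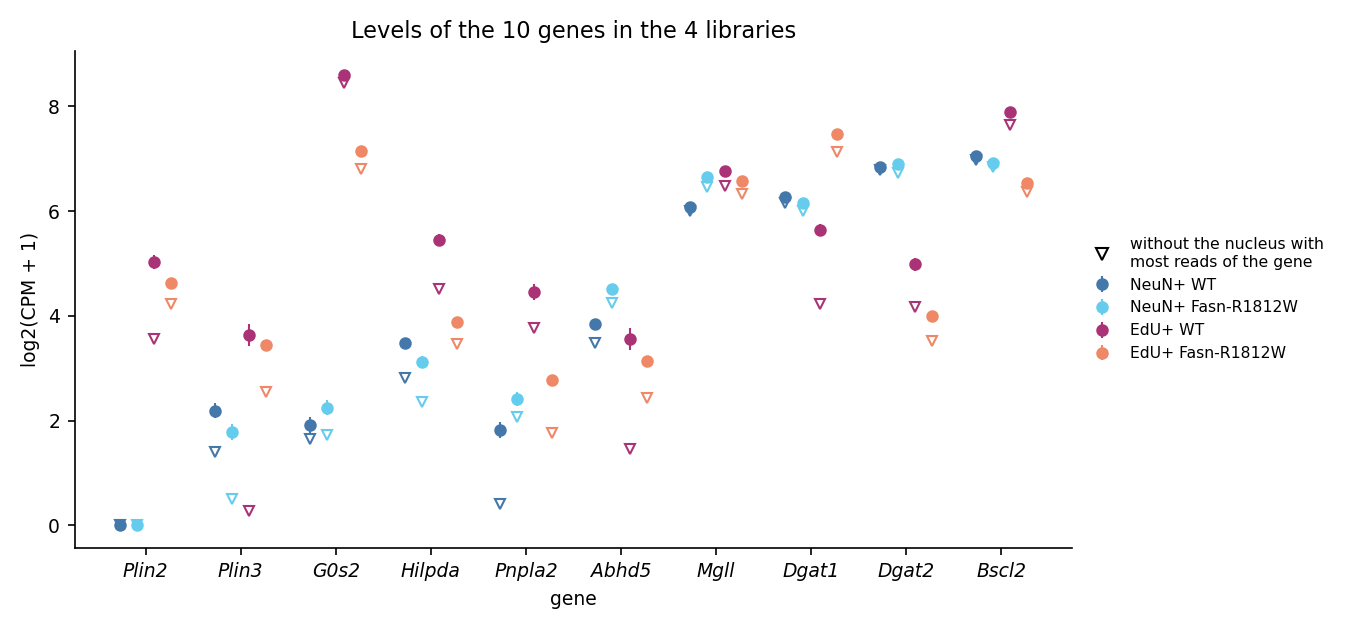
Levels of the 10 genes as log2(CPM + 1) in each library, with filled points and 95% Poisson bars for all kept nuclei and open triangles after leaving out the 1 nucleus with most reads of the gene. G0s2 stands at 386 and 141 CPM in the EdU+ libraries against 2.75 and 3.75 CPM in the NeuN+ libraries, and Plin3 of EdU+ WT is left with 3 of 172 reads without 1 nucleus.

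Among the coat proteins, Plin2, the perilipin that marks droplets in most cells, had no read in any of the 314 NeuN+ WT or 301 NeuN+ Fasn-R1812W nuclei, which allows a level of up to 0.0432 and 0.0427 CPM and a share of nuclei with a read of up to 0.955% and 0.997%. Among EdU+ nuclei its level was 31.7 CPM for the WT and 23.7 CPM for the mutant. Against the limit of 3 reads, the pooled level was 733-fold higher in EdU+ than NeuN+ nuclei of WT and 554-fold in Fasn-R1812W. This allows for counting error in the NeuN+ libraries alone, and without the top nucleus the EdU+ levels were 10.8 and 17.6 CPM. By nuclei with a read, the 95% interval of EdU+ WT (0.372% to 5.16%) overlapped that of NeuN+ WT (up to 1.17%). Those of Fasn-R1812W were apart (6.86% to 13.4% against up to 1.22%), but overlapped for 10 reads or more (0.812% to 4.10%). The reads lay in different nuclei in the 2 EdU+ libraries. In EdU+ WT, 2 nuclei held 475 of the 476 reads, both with precursor markers, and the top nucleus alone held 65.8%. In EdU+ Fasn-R1812W, 34 nuclei had a read but only 7 had 10 or more, and 81.3% of the reads were in a cluster led by immune genes.

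Plin3, a perilipin that binds droplets from the cytosol, was at 3.55, 2.42, 11.4 and 9.84 CPM in the 4 libraries. A single nucleus held 98.3% of its reads in EdU+ WT, 82.9% in NeuN+ Fasn-R1812W, 53.8% in NeuN+ WT and 50.6% in EdU+ Fasn-R1812W. The EdU+ libraries were above the NeuN+ libraries, but at most 5 nuclei of any library had 10 reads or more.

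Among the ATGL inhibitors, G0s2, a small gene at chromosome 1, 193272161 to 193273217 on the minus strand (GRCm38), was at 2.75 CPM in WT and 3.75 CPM in mutant NeuN+ nuclei. Among EdU+ nuclei it was at 386 CPM for the WT (interval 376 to 396) and at 141 CPM for the mutant (interval 139 to 144). Both EdU+ libraries lay far above both NeuN+ libraries, and the EdU+ pair did not overlap within counting error. Nuclei with 10 reads or more were 1.59% and 1.99% of the NeuN+ libraries, 35 of 167 in EdU+ WT (20.96%, interval 15.1% to 27.9%) and 42 of 348 in EdU+ Fasn-R1812W (12.1%, interval 8.84% to 16.0%). With each nucleus thinned to 50000 reads, the share with a read was 2.23%, 2.66%, 24.6% and 17.0% in the 4 libraries. Without thinning, the share with any read was 24.6% in EdU+ WT and 36.8% in EdU+ Fasn-R1812W, which goes against the CPM and is read as no order. Of the 128 such mutant nuclei, 70 had a single read.

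Levels of G0s2 in single nuclei are given for nuclei with 10 reads or more, a choice that itself leaves out low levels. They ran from 170 to 4183 CPM with a median of 1662 in EdU+ WT. In EdU+ Fasn-R1812W they ran from 20.6 to 5444 CPM with a median of 1058. The EdU+ WT medians of Plin2 (3225, 2 nuclei) and Dgat1 (2210, 4 nuclei) were higher than that of G0s2, whereas in EdU+ Fasn-R1812W no other member's was. In NeuN+ nuclei the highest G0s2 level was 655 CPM. The nucleus with most G0s2 reads held 9.91% of them in EdU+ WT and 21.7% in EdU+ Fasn-R1812W, so the EdU+ level did not rest on 1 nucleus. Hilpda, the hypoxia-inducible inhibitor of ATGL, was at 10.2, 7.72, 42.9 and 13.8 CPM in the 4 libraries. Its EdU+ WT level stood on 2 nuclei, which held 49.3% and 47.6% of the reads, and only 3 to 8 nuclei of any library had 10 reads or more.

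**Figure D2:**
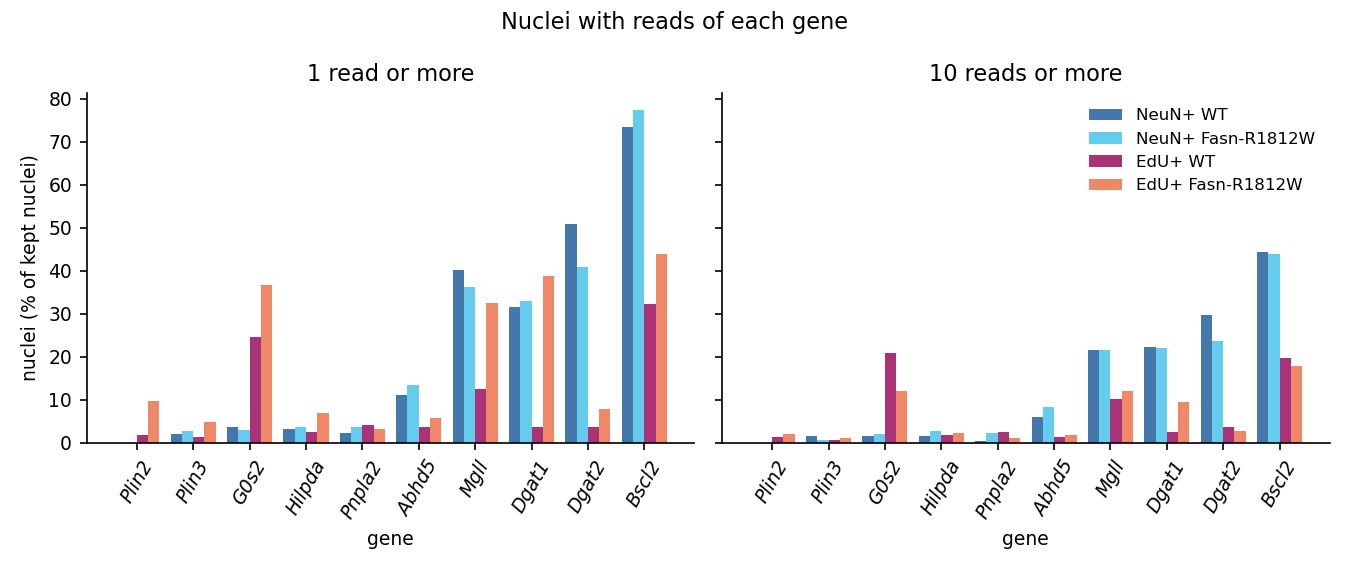
Share of kept nuclei, in percent, with 1 read or more (left) and 10 reads or more (right) of each gene, 1 bar per library. For G0s2 and Dgat1, EdU+ Fasn-R1812W loses most between the panels: G0s2 goes from 36.8% to 12.1% and Dgat1 from 38.8% to 9.48%, while G0s2 in EdU+ WT goes from 24.6% to 20.96%.

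Among the lipases, Pnpla2 was low everywhere, at 2.53, 4.29, 20.9 and 5.84 CPM in the 4 libraries. Between 1 and 7 nuclei of a library had 10 reads or more of it, and 1 nucleus held 87.5% of the reads in NeuN+ WT. Abhd5 was at 13.4, 21.9, 10.8 and 7.76 CPM and was spread over more neurons, with 19 and 25 NeuN+ nuclei at 10 reads or more against 2 and 6 EdU+ nuclei. In EdU+ WT 1 nucleus held 84.0% of the Abhd5 reads. This nucleus, in the cluster led by immune genes and with 251310 reads, was also the top nucleus of its library for Pnpla2, with 39.8% of the reads, and the second for Hilpda and Dgat2. Abhd5 shares 950 exon bases with the antisense gene A730085K08Rik, which the count tables do not list. Reads from the 2 strands cannot be told apart here, because no label gives the strand setting of the counting.

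Of the 2 lipases among the members, Mgll had more reads than Pnpla2 in all 4 libraries, at 66.4, 99.3, 107 and 94.9 CPM. It had 10 reads or more in 21.7% and 21.6% of NeuN+ nuclei and in 10.2% and 12.1% of EdU+ nuclei, so similar pooled levels came from fewer and stronger nuclei in the EdU+ gate. The median level in such nuclei was 203 and 242 CPM in NeuN+ and 898 and 451 CPM in EdU+ libraries. Mgll shares 167 exon bases with the antisense gene Gm26588, also not listed in the tables. Its top nucleus held 5.22% to 17.2% of the reads of a library.

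Among the synthesis genes, Dgat2 (chromosome 7, 99153658 to 99182719, minus strand) was at 114 and 118 CPM in NeuN+ nuclei of WT and mutant, against 30.6 and 14.9 CPM in EdU+ nuclei. Its top nucleus held 4.33% and 11.1% of the NeuN+ reads and 44.1% and 29.5% of the EdU+ reads. The gates did not overlap: 93 and 71 NeuN+ nuclei had 10 reads or more (29.6% and 23.6%), against 6 and 9 EdU+ nuclei (3.59% and 2.59%). Thinned to equal depth, 40.8%, 32.9%, 3.59% and 4.31% of nuclei had a read. Dgat1 was at 76.3, 70.5, 49.0 and 176 CPM, high in EdU+ Fasn-R1812W and low in EdU+ WT, where 1 nucleus held 63.6% of the reads. It had 10 reads or more in 70 and 66 NeuN+ nuclei, 4 in EdU+ WT and 33 in EdU+ Fasn-R1812W. The 2 acyltransferases catalyse the same step, and Dgat2 was apart by gate in both genotypes whereas the EdU+ levels of Dgat1 lay on either side of the NeuN+ levels.

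Bscl2 had a read in more nuclei of each library than any other member. It had 10 reads or more in 44.3%, 43.9%, 19.8% and 17.8% of nuclei and levels of 132, 121, 235 and 92.4 CPM in the 4 libraries. The EdU+ pair lay on either side of the NeuN+ pair. The top nucleus held 5.18% to 15.4% of the reads of a library. Bscl2 shares 398 exon bases with Gng3, a neuronal G protein subunit gene on the other strand, and 239 with AC129217.1 on its own strand. Gng3 was at 155, 208, 210 and 99.4 CPM in the same order; its part in the counts of Bscl2 was not tested.

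The gate difference was tested over all 4 libraries by edgeR's quasi-likelihood test with gate and genotype as terms. Of 17411 genes tested, 1171 (6.73%; 3.85% higher and 2.88% lower in EdU+ nuclei) were called at a Benjamini-Hochberg adjusted p under 0.05, with a median log2 fold change of -0.16. All 10 members entered the test, with a median of 0.87, and 3 were called, 2 higher and 1 lower. G0s2 was higher in EdU+ nuclei by a log2 fold change of 6.15 ± 0.61 (SE; adjusted p = 0.0037), in both genotypes. Dgat2 was lower in EdU+ nuclei, with a log2 fold change of -2.47 ± 0.50 (adjusted p = 0.035), also in both genotypes. Plin2 was higher (adjusted p = 0.020), but it passed the filter of this test only through the EdU+ libraries, where it was high. In EdU+ WT 2 nuclei held 475 of its 476 reads, and its p-value takes such reads as counts of a library. Its fitted fold has no meaning beside NeuN+ counts of 0, and the pooled ratios given above rest on few nuclei. The fit left 1 residual degree of freedom, the departure of the genotype difference between the gates, so its spread was mostly borrowed from other genes.

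The other 7 members had adjusted p-values between 0.48 and 0.86 in this edgeR fit, with log2 fold changes from -0.94 for Abhd5 to 1.82 for Plin3. Over the 10 alternative fits, which include those without 1 library, the log2 fold change of G0s2 ran from 5.44 to 6.83. That of Plin2 stayed positive. In fits without 1 library genotype was not a term and 1 library stood alone in its gate, so calls in them are no separate support. Dgat2 lost its call without NeuN+ WT (adjusted p = 0.078) or NeuN+ Fasn-R1812W (adjusted p = 0.073), at log2 fold changes of -2.42 and -2.39. Without EdU+ Fasn-R1812W, when 24.1% of all genes were called, Hilpda was called higher in EdU+ nuclei (log2 fold change 2.19, adjusted p = 0.029). Without EdU+ WT, when 20.1% were, Dgat1 was called higher (log2 fold change 1.25, adjusted p = 0.024), and without EdU+ Fasn-R1812W its log2 fold change was -0.65.

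**Figure D3:**
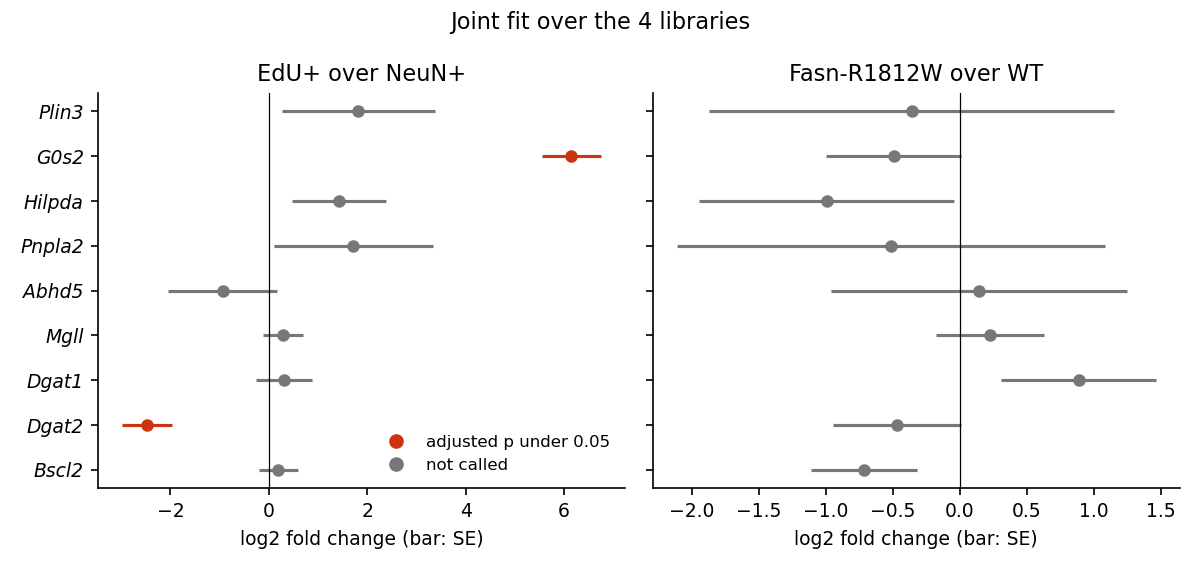
Log2 fold changes of 9 members for gate (left) and genotype (right) in the joint fit over 4 libraries. Bars are 1 SE, derived from the F statistic, and called members are in red. Only G0s2 at 6.15 and Dgat2 at -2.47 are called for gate among these 9, and none for genotype; Plin2 is not drawn because its NeuN+ counts are 0.

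Gate by gate, the same libraries gave the following ratios, which have no test. A gene counted as apart when its CPM + 1 differed at least 2-fold and it had 10 CPM and a read in 10% of nuclei in either library. In WT, 38.9% of 10647 genes were apart (14.5% higher and 24.4% lower in EdU+ nuclei), and of the 6 members past the filter 1 was higher in EdU+ (G0s2, log2 ratio 6.69) and 1 lower (Dgat2, -1.87). In Fasn-R1812W, 42.6% of 11621 genes were apart (20.4% higher and 22.2% lower), and of 6 members 2 were higher (G0s2, 4.91, and Dgat1, 1.31) and 2 lower (Dgat2, -2.90, and Abhd5, -1.39). G0s2 passed the filter only through the EdU+ libraries, and Dgat2 and Abhd5 only through the NeuN+ libraries, in each case where they were high. These comparisons share their libraries with the fit above. The median log2 ratio of the 6 members was 0.19 in WT and -0.22 in Fasn-R1812W, against -0.15 and -0.06 over all genes past the filter.

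Genotype gave no call among the members. In the same edgeR fit, 1 of 17411 genes (0.00574%) was called for genotype, 276 had an unadjusted p under 0.05, and none of the 10 members was among either. DESeq2 called 78 genes and no member. The members' log2 fold changes of Fasn-R1812W over WT ran from -0.99 for Hilpda to 0.89 for Dgat1, with SEs between 0.40 and 1.60 and a median of -0.41, against 0.06 over all genes.

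Ratios between genotypes within a gate compare 1 library with 1 and have no replicate check. Within the NeuN+ gate, where 6.19% of 10865 genes were at least 2-fold apart (3.18% higher and 3.02% lower in the mutant), none of the 5 members past the filter was. As mutant over WT, the log2 ratios were 0.67 for Abhd5, 0.57 for Mgll, 0.04 for Dgat2, -0.11 for Dgat1 and -0.13 for Bscl2. The median was 0.04, against 0.02 over all genes past the filter. The counting intervals of the 2 libraries overlapped for Dgat2 and were apart for the other 4. With nuclei thinned to equal depth the log2 ratio of Mgll was 0.17.

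Within the EdU+ gate, where 25.4% of 9186 genes were apart (17.4% higher and 8.01% lower in the mutant), 3 of the 4 members past the filter were. Dgat1 was higher in Fasn-R1812W (log2 ratio 1.82), G0s2 (-1.44) and Bscl2 (-1.34) were lower, and Mgll was at -0.17. Dgat1 passed the filter only through the mutant library, where it was high, with a read in 38.8% of nuclei against 3.59% in EdU+ WT. Of these 135 mutant nuclei 58 had a single read, and 9.48% of mutant nuclei had 10 reads or more. The count rested on the filter for nuclei: with nuclei kept from 300 genes and 20000 reads, which gives 352 nuclei for EdU+ WT, the ratios were -1.02 for G0s2, -0.98 for Bscl2 and 0.55 for Dgat1, so 1 member was apart. With no filter they were -0.96, -0.92 and 0.16, and none was. The direction of all 3 was kept under both. Levels in EdU+ WT that moved most between the first filter and the relaxed one were those of Dgat1 (49.0 to 119 CPM), Abhd5 (10.8 to 22.9), Plin2 (31.7 to 17.2), Pnpla2 (20.9 to 11.5) and Plin3 (11.4 to 20.4).

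Nuclei of each gate were clustered without the members and the other droplet and triglyceride genes, and clusters were named from marker genes. In the EdU+ gate, the largest class was oligodendrocyte precursor-like (OPC-like), with 133 of 167 nuclei in WT and 234 of 348 in Fasn-R1812W. Its leading genes included C1ql1 and Olig1 of the precursor marker list, but also Gpr17 of the committed precursor list. A microglia-like class led by Fcrls, Tmem119 and P2ry12 had 3 and 32 nuclei. Cluster 0, led by H2-Aa, Ccr2, Nkg7 and Ccl5, genes of several kinds of immune cell, was left unnamed and had 5 and 44 nuclei. Cluster 3, led by Top2a, Pxdn and Prox1, was also unnamed, had 6 of 8 neuroblast markers raised, and held 26 and 38 nuclei. The immune classes depended on the nucleus filter. With the relaxed one, the microglia-like class had 28 WT and 33 mutant nuclei, and a neutrophil or monocyte-like cluster had 14 and 7. An unnamed cluster led by H2-Aa then had 6 and 41. In the NeuN+ gate the first filter gave granule neuron-like (137 and 79 nuclei), CA1-like (38 and 54), CA3-like (4 and 12), interneuron-like (42 and 42) and subicular or entorhinal-like (36 and 36) classes and 3 unnamed clusters. Of the subicular or entorhinal-like nuclei, 26 and 17 came from a cluster that matched its list weakly. Its markers had a mean log2 fold of 0.31, with 3 of 8 raised and none among its 10 leading genes. Levels are given for classes with at least 10 nuclei in a library.

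**Figure D4:**
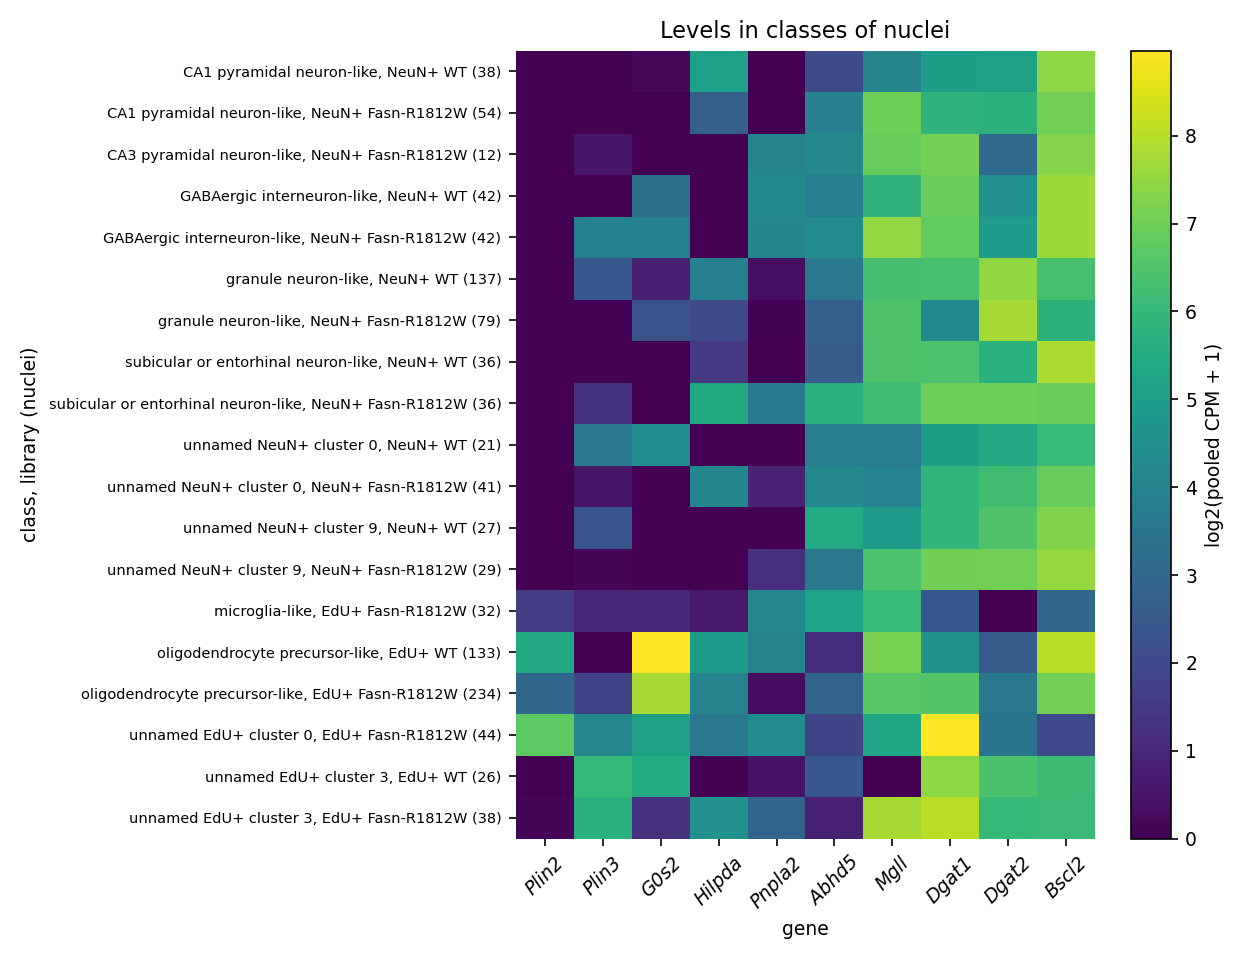
Pooled level, as log2(CPM + 1), of each gene in each class of nuclei of a library, with the number of nuclei in brackets. G0s2 is brightest in OPC-like nuclei (499 and 217 CPM) and Dgat2 in granule neuron-like nuclei (178 and 217 CPM), and Plin2 is at 0 in each NeuN+ class shown.

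In the EdU+ gate G0s2 reads lay mostly in OPC-like nuclei, from which no committed precursor or astrocyte class was separated. They held 97.9% of the reads in EdU+ WT and 95.5% in EdU+ Fasn-R1812W, with levels of 499 CPM (interval 486 to 513) and 217 CPM (interval 213 to 220). Of OPC-like nuclei, 33 of 133 and 40 of 234 had 10 reads or more. In the same mutant library microglia-like nuclei, at a median depth of 208416 reads against 212654 in OPC-like nuclei, held 9 G0s2 reads in all, with 0 of 32 nuclei at 10 reads or more. A read was still found in 8 of these 32 nuclei, against 41.9% of OPC-like nuclei, and shares with any read are therefore not taken as expression here. Cluster 0 was at 33.0 CPM, of which 1 nucleus held 95.3%, and cluster 3 was at 45.2 CPM for WT nuclei and 1.41 CPM for mutant nuclei. In the NeuN+ gate, CA1-like and subicular or entorhinal-like nuclei had at most 0.140 CPM, and the interneuron-like class had 9.24 and 14.4 CPM on 2 and 3 nuclei with 10 reads or more. The highest NeuN+ level was 19.7 CPM, in unnamed cluster 0 of WT, also on 2 such nuclei.

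The gap in G0s2 between the EdU+ libraries was present within OPC-like nuclei, with a log2 ratio of -1.20, and -1.42 without the top nucleus of each library. The ratio within these nuclei was -0.92 for Bscl2, -0.52 for Mgll and 1.95 for Dgat1. For Dgat1, 3 of 133 WT and 17 of 234 mutant OPC-like nuclei had 10 reads or more, at 23.6 and 94.2 CPM, and 1 WT nucleus held 68.7% of the WT reads. OPC-like nuclei had a median of 76410 reads in WT and 212654 in Fasn-R1812W.

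Plin2 and Dgat1 of EdU+ Fasn-R1812W sat largely in cluster 0. Plin2 was at 105 CPM there with 10 reads or more in 5 of 44 nuclei, against 6.75 CPM in OPC-like nuclei with 1 of 234 and 2.11 CPM in microglia-like nuclei. Dgat1 was at 495 CPM in cluster 0, with 8 of 44 nuclei at 10 reads or more, and this cluster held 51.8% of the Dgat1 reads of the library and OPC-like nuclei 33.5%. Without the top nucleus the 2 levels were 71.9 and 297 CPM. Cluster 0 was 12.6% of the mutant library and 2.99% of EdU+ WT. The part of this share in the Dgat1 difference was not tested. In cluster 3 Dgat1 was at 261 CPM in Fasn-R1812W on 6 of 38 nuclei, and in WT all reads came from 1 nucleus. Plin2 of EdU+ WT was in OPC-like nuclei, at 41.8 CPM on 2 nuclei.

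**Figure D5:**
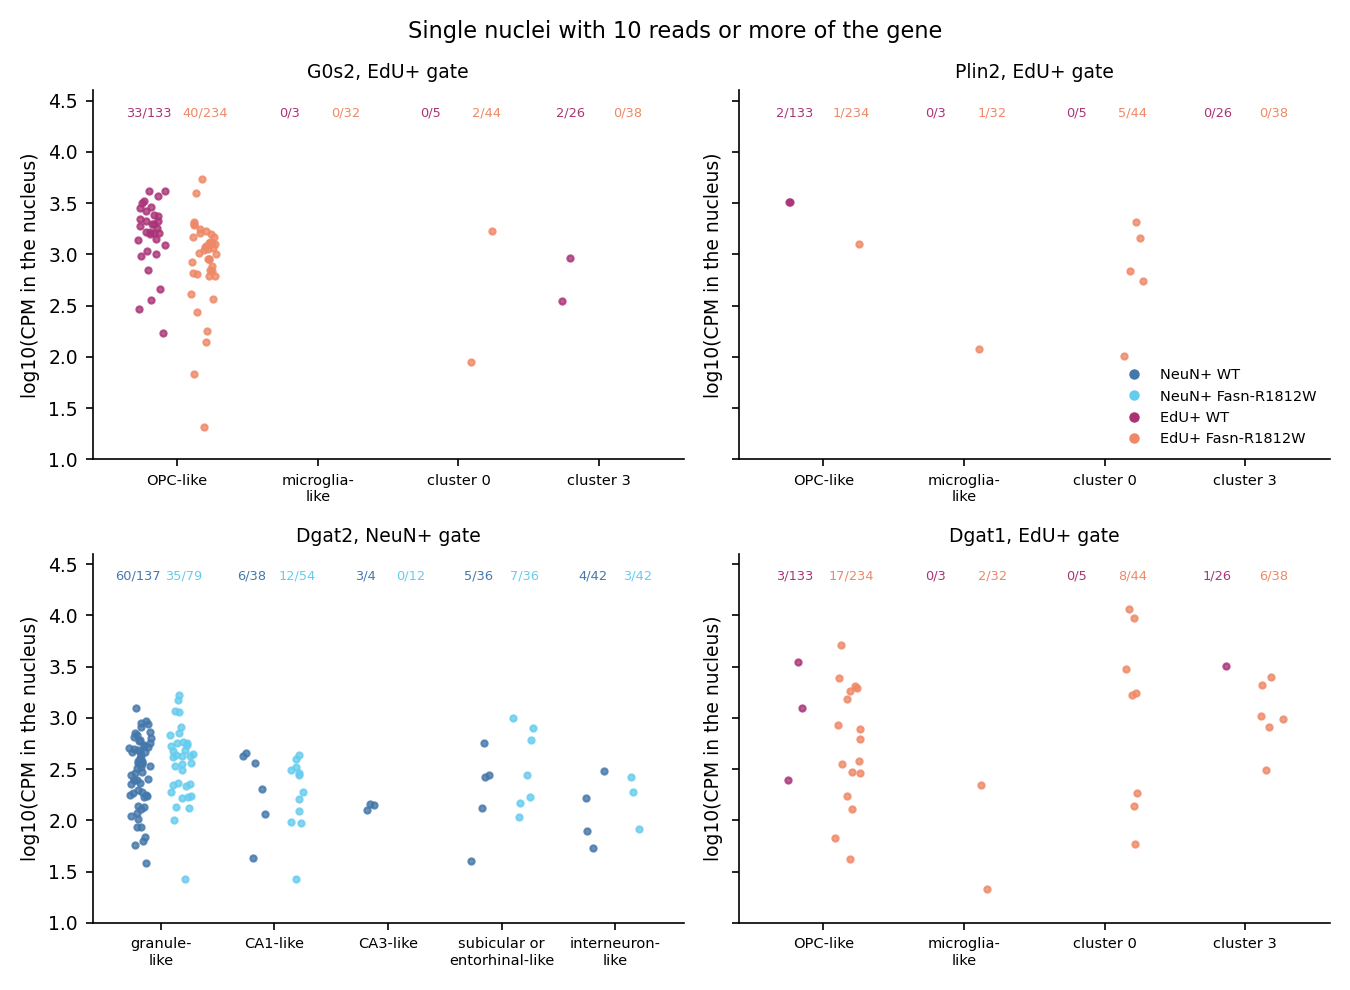
Level of G0s2, Plin2 and Dgat1 in single EdU+ nuclei and of Dgat2 in single NeuN+ nuclei, as log10 of CPM in the nucleus, by class; each point is 1 nucleus with 10 reads or more, and the numbers give such nuclei over all nuclei of the class. G0s2 points crowd in the OPC-like class (33 of 133 and 40 of 234), Dgat2 points in the granule neuron-like class (60 of 137 and 35 of 79).

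Of the classes with at least 10 nuclei, granule neuron-like nuclei had the highest Dgat2 level in both genotypes. It was 178 CPM for WT (interval 173 to 183) and 217 CPM for the mutant (interval 211 to 224), with 10 reads or more in 60 of 137 and 35 of 79 nuclei. Of the other named classes, subicular or entorhinal-like nuclei were at 51.6 and 126 CPM, CA1-like nuclei at 33.2 and 53.4 CPM and interneuron-like nuclei at 22.1 and 30.3 CPM. The order of these 4 classes was the same in both libraries. Of the unnamed clusters of this gate, cluster 9 was at 88.3 and 131 CPM and cluster 0 at 41.1 and 74.0 CPM. Cluster 11 was too small for a level, and 6 of 9 WT and 3 of 8 mutant nuclei in it had 10 reads or more. In CA3-like nuclei of Fasn-R1812W Dgat2 was at 7.82 CPM, and none of 12 had 10 reads. In the EdU+ gate, OPC-like nuclei had 4.93 and 11.0 CPM, microglia-like nuclei had no read, and cluster 3 had 83.1 and 63.2 CPM on 3 nuclei in each library. Granule neuron-like nuclei were 43.6% of NeuN+ WT and 26.2% of NeuN+ Fasn-R1812W, while the pooled Dgat2 level was 114 and 118 CPM.

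Bscl2 was read in every neuronal class and, of the named ones, was lowest in granule neuron-like nuclei, at 81.0 and 53.8 CPM. It was at 202 and 199 CPM in interneuron-like nuclei, 174 and 131 CPM in CA1-like nuclei and 234 and 121 CPM in subicular or entorhinal-like nuclei. In the EdU+ gate it was at 258 and 136 CPM in OPC-like nuclei, against 6.89 CPM in microglia-like nuclei and 2.98 CPM in cluster 0 of Fasn-R1812W. Among EdU+ nuclei of Fasn-R1812W, OPC-like nuclei were thus well above both classes with immune genes. In EdU+ WT these classes had 3 and 5 nuclei, too few for a level, with 215 and 199 Bscl2 reads that came from 1 nucleus in each.

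Mgll was read in each class with at least 10 nuclei except cluster 3 of EdU+ WT. It was at 79.9 and 88.7 CPM in granule neuron-like nuclei of WT and Fasn-R1812W, 16.0 and 125 CPM in CA1-like, 55.8 and 182 CPM in interneuron-like and 87.7 and 70.9 CPM in subicular or entorhinal-like nuclei. The gap in CA1-like nuclei was 10.8 against 79.8 CPM without the top nucleus of each. In OPC-like nuclei it was at 141 and 97.8 CPM. Dgat1 was at 81.3 and 17.9 CPM in granule neuron-like nuclei, with 26 of 137 and 9 of 79 nuclei at 10 reads or more, and at 121 and 109 CPM in interneuron-like nuclei. These gaps have no test.

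Genes with the pattern most like that of a member were sought over the 19 class-by-library values, among 11018 genes, by Spearman's rho. The nearest to G0s2 was Sox6 (0.89), a transcription factor of the oligodendrocyte lineage, then Appl2 (0.89). For Dgat2 they were Pitpnm2 (0.86) and Ildr2 (0.85), for Bscl2 Ipo8 (0.83) and Pomgnt1 (0.83), for Mgll Sft2d3 (0.86) and Zfp579 (0.85) and for Dgat1 Hint1 (0.82) and Lnpep (0.81). For Plin2, with reads in few classes, they were Plac8 and Gucy2f (both 0.99). For Plin3 it was Cd24a (0.79), for Hilpda Alkbh5 (0.78) and Lemd2 (0.77), for Pnpla2 Tent5a (0.86) and Pag1 (0.76) and for Abhd5 Dvl2 (0.80) and Stk16 (0.77). Values of 1 library share their depth, and so many candidates give high values for sparse genes.

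Of 53 other listed genes of droplets and of glycerolipid synthesis and breakdown, 49 were found and 42 entered the edgeR fit. For gate, 2 were called, both higher in EdU+ nuclei: Agpat5, which makes phosphatidic acid (log2 fold change 1.84 ± 0.34, adjusted p = 0.026), and Ddhd1, a phospholipase (1.67 ± 0.35, adjusted p = 0.041). The 2 of 42 stand beside 3.85% of all genes called higher. Without NeuN+ WT their log2 fold changes were 1.83 and 1.47 and neither was called (adjusted p = 0.069 and 0.16), nor was any other gene of the list. Without NeuN+ Fasn-R1812W they were 1.82 and 1.84, again not called (adjusted p = 0.059 and 0.056), while Dagla and Vps13c were called lower. DESeq2 called 12 of 49, 6 higher and 6 lower, where it called 14.6% of all genes. For genotype none was called by either tool, with 0 and 1 at an unadjusted p under 0.05 by edgeR and DESeq2.

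In the NeuN+ gate 1 of 29 listed genes past the filter was at least 2-fold apart between genotypes: Rab18, a small GTPase of droplets and endoplasmic reticulum, was at 62.5 CPM for WT and 22.1 CPM for mutant nuclei. In the EdU+ gate 5 of 28 were. Lipe, which encodes hormone-sensitive lipase, was at 4.99 CPM for the WT and 20.3 CPM for the mutant. In the WT 1 nucleus held 62.7% of the Lipe reads. Lipe passed the filter only through the mutant library, with a read in 13.2% of nuclei against 1.80%. Vps13c, a lipid transfer protein, was at 61.3 CPM for the WT and 140.9 CPM for the mutant. Agpat4 was at 135 and 53.7 CPM, Abhd12, a lysophospholipid lipase, at 631 and 254 CPM and Gpat4, which starts glycerolipid synthesis, at 63.4 and 29.9 CPM. The shares, 1 of 29 and 5 of 28, stand beside 6.19% and 25.4% of all genes.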

How the data were processed

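Read counts per gene and well, as deposited by the authors, were whole numbers and raw. The submitters' processing notes name Trimmomatic 0.36, STAR 2.5.3a and GRCm38.p5. Which program and annotation made the counts, and with what strand setting, is not given in the sources used here. Each table held 384 wells, and the well names (index pairs) were the same in all 4 libraries with no well identical between libraries. The labels state 382 nuclei a library. Gene positions are from GENCODE M21. Embryonic nuclei were not analysed here.

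Counts were summed over kept nuclei (totals of 71221156, 72468235, 36368990 and 96597804 reads over all wells). Log2 ratios used a prior of 1 CPM, which understates the change of low genes. edgeR 4.0.16 in R 4.3.3 fitted gate and genotype to the 4 sums after filtering low counts and TMM scaling. Its p-values had Benjamini-Hochberg adjustment over all genes, and DESeq2 1.42.0 was an alternative. The SEs given for the edgeR fit are the absolute log2 fold change divided by the square root of the F statistic, and were not estimated directly. Whether the nuclei of a library came from 1 mouse or several is not stated. Each library is the only one of its gate and genotype, so the p-values measure no spread between like libraries. The 1 residual degree of freedom is how far the genotype difference departs between the gates, moderated by the spread of other genes (prior degrees of freedom 5.77). Counts have exact Poisson intervals and shares have Clopper-Pearson intervals, both at 95%; a count of 0 was set at a limit of 3 reads. The joint fit and the ratios were also run on simulated library sums, with counting error alone for the ratios. Single nuclei that hold most reads of a gene were not simulated, so these runs check the code and not the results.

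Clusters were made within a gate by scanpy 1.11.5 (2000 variable genes, 20 principal components, 15 neighbours, Leiden at resolution 0.5, a second round in clusters of at least 50 nuclei with 10 components). Members, listed pathway genes, Y-linked genes, Xist, Tsix and mitochondrially encoded genes were left out. No doublets were called. Each cluster was matched to the list whose markers had the greatest mean log2 fold, and named for it if at least 3 of them were 2-fold up and its 10 leading genes held more markers of that list than of any other, or none of either. Of 53 pathway symbols 49 were found. The members and lists were chosen with earlier results of these data known. Cluster settings and the naming rule were set after seeing how markers grouped, and the count of nuclei with 10 reads or more, and the values within OPC-like nuclei, were added after seeing the data. All members are named. Other pathway genes are named if called in the joint fit or, from 20 CPM in the higher library, if at least 2-fold apart between genotypes, at most 6 a comparison. For each member with 10 CPM in any library, the 2 genes with the highest rho are named, predicted genes left out; 1 of these genes is not reported here. Alternatives were other nucleus filters, leaving out the top well or a library, thinning to 50000 reads, other scaling, filters and priors, and assigning nuclei by marker score.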

Additional observations from a re-analysis of the deposited data

Results flagged for a closer look

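The ratio of Fasn-R1812W over WT went opposite ways in the 2 gates, with counting intervals of the 2 libraries apart in each gate, for 5 members. How many of all genes meet this rule was not counted, so the 5 are not read as a result about the members. Of them, only Mgll and Dgat1 passed the filter on low values in both gates. The NeuN+ ratio of G0s2 rested on 5 and 6 nuclei with 10 reads or more and was as low as 0.087 in the alternatives. The difference between the gates was not tested, since in the joint fit it is what serves as the residual spread. As the log2 ratio in EdU+ nuclei minus that in NeuN+ nuclei, it was -1.78 for G0s2 (-1.44 against 0.34) and -2.26 for Pnpla2 (-1.68 against 0.58, with 4 EdU+ nuclei in each library and 1 and 7 NeuN+ nuclei at 10 reads or more). It was -1.09 for Abhd5 (-0.43 against 0.67) and -0.75 for Mgll (-0.17 against 0.57). It was 1.93 for Dgat1 (1.82 against -0.11). With the relaxed nucleus filter and with none the EdU+ ratio of Mgll was 0.07 and 0.12, the same direction as in NeuN+ nuclei. The EdU+ ratio of Abhd5 also took that direction without the top well (0.98), with thinned nuclei (0.98), as the mean CPM of each nucleus (1.09) and within OPC-like nuclei (1.68).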

How the results depend on the processing

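The same 3 members were called for gate under DESeq2 (14.6% of all genes called), without the filter on low counts (5.71%), with the relaxed nucleus filter (11.2%) and none (10.8%), with thinned nuclei (13.9%) and without the top well (11.5%), against 6.73%. In fits without 1 library the other 3 were fitted with 1 term, so that the genotype term then also takes up the gate, and 1 library stands alone in its group and is assumed to vary like the rest. For gate, the log2 fold change over these fits ran from -0.020 to 0.55 for Mgll, -0.65 to 1.25 for Dgat1 and -0.46 to 0.83 for Bscl2, and that of Dgat1 was -0.11 without its top well. For genotype, where no member was called, it ran from -12.6 to 12.9 for Plin2 (0.61 without NeuN+ Fasn-R1812W), -1.59 to 0.77 for Plin3, -5.64 to 4.71 for G0s2, -1.95 to 0.067 for Hilpda, -2.00 to 0.99 for Pnpla2, -0.65 to 0.87 for Abhd5, -0.10 to 0.53 for Mgll and -2.31 to 1.17 for Dgat2 (0.70 without EdU+ Fasn-R1812W). The genotype sign also turned with no nucleus filter and the relaxed one for Plin2 (0.43 and 0.41) and Abhd5 (-0.44 and -0.45), without the top well for Plin2 (0.57), Plin3 (1.19) and Pnpla2 (0.42), and with thinned nuclei for Hilpda (0.15) and Mgll (-0.089); the cause was not tested.

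The number of members at least 2-fold apart between EdU+ genotypes was 3 of 4 (25.4% of all genes), but 1 of 4 with the relaxed nucleus filter (22.1%), 0 of 4 with none (22.1%) and 5 of 10 with no filter on low values (36.9%). Between gates in WT it was 2 of 6 (38.9%), but 4 of 6 without the top well (47.1%) and 6 of 10 with no filter on low values (45.1%). Levels in OPC-like nuclei were, for G0s2, 404 CPM (WT) and 181 CPM (mutant) with the relaxed filter, 449 and 167 CPM without the top well and 224 CPM (mutant) by marker score. In granule neuron-like nuclei Dgat2 was at 211 and 319 CPM with the relaxed filter, 168 and 174 CPM without the top well and 334 CPM (mutant) by marker score. In cluster 0 of the mutant, Plin2 was at 71.9 CPM and Dgat1 at 297 CPM without the top well. Depth and 1 library a group limit these data: Plin3, Hilpda and Pnpla2 had at most 8 nuclei with 10 reads or more in any library. No paired analysis was possible because each group is 1 library.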

Other observations

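Nuclei without a read of any of the 10 genes were 3.82% of NeuN+ WT, 5.98% of NeuN+ Fasn-R1812W, 37.7% of EdU+ WT and 13.2% of EdU+ Fasn-R1812W. With nuclei thinned to 50000 reads these shares were 10.2%, 12.3%, 38.9% and 31.9%. Of values of 1 to 9 reads of a member in EdU+ Fasn-R1812W, 98 of 445 (22.0%) lay in nuclei that shared an index with the well holding most reads of that gene, while 10.1% of nuclei shared one. In EdU+ WT the numbers were 4 of 43 (9.30%) and 10.2%.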
